A study of Mus musculus with 12 samples.

Results

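The 76 genes described here encode proteins of the mitochondrial ribosome. They are all genes of the array whose single annotated symbol is Mrpl or Mrps followed by a digit, out of 18193 genes with 1 annotated symbol. Each gene was represented by the probe set (a group of array probes for 1 transcript) with the highest mean over the 12 arrays. The 76 genes are covered by 156 probe sets. A single probe set covers 34 of them, and 42 have more than 1. Mrpl30 and Mrpl53 were measured by probe sets that several genes share and are not included.

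The RNA came from mouse embryonic stem cells differentiated in hanging drops to embryoid bodies, aggregates in which early embryonic tissues form, and dissociated on day 6. All cells carried dsRed as a reporter of the second heart field, a progenitor pool of the heart, and eGFP driven by an enhancer active in cardiac cells. Cells were sorted by fluorescence into Red+/Green+ (double-positive), Red+/Green- (red only), Red-/Green+ (green only) and Red-/Green- (double-negative) populations, in experiments A, B and C, with 1 array per population and experiment. The design asks how the 4 populations differ in their transcripts; no dose, age or further genotype separates them.

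Mitochondria translate the few proteins encoded by their own genome, all of them subunits of oxidative phosphorylation complexes, on a ribosome of their own. Its proteins are encoded in the nucleus, made in the cytosol and imported, and are assembled on the ribosomal RNAs of the mitochondrial genome into a large subunit, which joins amino acids, and a small subunit, which reads the messenger RNA. Many of the proteins have a bacterial counterpart, and others were added in the mitochondrial lineage. The genes were grouped in this way into 28 large subunit genes with a bacterial counterpart, 19 large subunit genes of the mitochondrial lineage, 17 small subunit genes with a bacterial counterpart and 12 small subunit genes of the mitochondrial lineage. The groups follow the symbols. In structures of the ribosome the Mrps18a and Mrps30 proteins sit on the large subunit, newer work gives the Mrpl55 and Mrps28 proteins bacterial counterparts, and the Mrps36 protein has been assigned to the oxoglutarate dehydrogenase complex.

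The values are probe set intensities on a linear scale, printed per array in the order of experiments A, B and C. Means are given with the SD over the 3 arrays of a population. Where 3 values are given for the comparisons with double-negative cells, they stand for double-positive, then red-only, then green-only. Differences are on the scale of log2(intensity + 4.10), which understates the change of dim genes, and come with a standard error and a p-value adjusted by Benjamini-Hochberg over 13698 genes in a limma fit to all 12 arrays. A gene is said to rise or fall only where the adjusted p-value was under 0.05. All 76 genes were bright enough on average to be tested. Array medians ran from 6.29 to 6.73 units and the medians of the 76 genes from 76.9 to 95.0 units. Mrpl33, at 4.88 to 8.33 units on the 12 arrays, lay near the array medians, where an intensity cannot be told from background. Nothing in the labels says that the experiments were separate cultures, so p-values measure the spread between these samples.

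The populations differed in markers of the cell types they could hold. The summed intensity of 7 cardiomyocyte markers was 16502.1 to 20745.6 in double-positive arrays, 8842.2 to 10919.6 in green-only arrays, 3062.4 to 4693.0 in red-only arrays and 317.4 to 517.7 in double-negative arrays, and all 7 markers were higher in each of the 3 reporter-positive populations than in double-negative cells. Of 7 pluripotency markers, 6, 7 and 6 were lower in these populations than in double-negative cells, where their sum was 1481.5 to 1765.9 against 131.1 to 330.6 on the other arrays; Tdgf1 was higher in double-positive cells. The 3 embryonic globin genes among 5 primitive blood markers were lower in all 3 populations, with sums over the 5 of 1068.3 to 1960.1 in double-negative arrays and 57.5 to 142.2 elsewhere. The sums of 5 endothelial markers were 455.3 to 670.7 in red-only, 259.7 to 781.4 in green-only, 184.2 to 265.2 in double-positive and 113.6 to 207.1 in double-negative arrays. The sums of 3 smooth muscle markers were 3726.8 to 4877.8 in double-positive and 2332.0 to 2484.8 in green-only arrays. They were 802.6 to 1270.4 in red-only and 229.0 to 303.4 in double-negative arrays. Those of 5 endoderm markers were 175.6 to 958.9 in green-only and 168.0 to 533.5 in double-negative arrays. In double-positive and red-only arrays they were 81.2 to 157.3 and 78.0 to 175.2. Those of 4 neural markers were 35.3 to 43.5 in double-negative arrays. They were 30.5 to 35.1 in double-positive, 30.5 to 33.4 in red-only and 29.5 to 31.2 in green-only arrays. In each comparison with double-negative cells 1 of the 4 was lower. No marker was listed at 0. In such bulk samples, fewer cells of a type and less RNA per cell cannot be told apart, and the part of this makeup in the results below was not tested.

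The promoters were searched for the letters of known regulators. RefSeq promoter windows (250 bases before to 50 after a start site, GRCm38.p6) were on hand for 67 of the 76 genes and for 10990 of the genes tested. Searched on both strands, the NRF1 letters GCGCATGCG were in the windows of 7 genes (10.4%, against 3.59% of all genes tested), the ETS family letters CCGGAAGT in 12 (17.9% against 7.87%) and the YY1 letters AAGATGGCG in 8 (11.9% against 3.11%). NRF1, GABP (an ETS family factor) and YY1 are known activators of nuclear genes for mitochondria. At least 1 of these 3 was found in 26 of the 67 genes (38.8% against 13.7%), while the TATA box letters TATAAA were in 5 (7.46% against 9.52%). A match is a description of the letters in this window and does not show a bound site. The sequences of 6 genes named below are shown to the start site, 5′ to 3′ on the strand of the gene, with matches in capitals. Mrpl36, with the clearest difference among the 4 populations, holds the YY1 letters (on the other strand). Mrpl51 and Mrps27, with reporter interactions, hold the ETS letters (in Mrps27 on the other strand). Mrps27 also holds the YY1 letters, after the start site and so not shown. Mrpl42 and Mrps18b, which also had interactions, hold the YY1 and the NRF1 letters. Mrpl17 holds the NRF1 letters. Mrps6 and Mrpl23, which respectively rose and fell in all 3 reporter-positive populations, hold none of the 4. The Mrps27 stretch is shorter, since the start of Ptcd2 on the other strand lies 108 bases away.
Mrpl36, chr13:73330859-73331008, plus strand: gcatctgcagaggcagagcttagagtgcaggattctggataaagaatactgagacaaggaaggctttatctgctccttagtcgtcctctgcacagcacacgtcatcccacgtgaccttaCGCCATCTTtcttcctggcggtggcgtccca
Mrpl51, chr6:125192050-125192199, plus strand: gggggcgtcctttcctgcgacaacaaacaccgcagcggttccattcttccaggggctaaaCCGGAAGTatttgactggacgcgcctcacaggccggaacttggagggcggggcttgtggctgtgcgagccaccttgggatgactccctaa
Mrps27, chr13:99344679-99344785, plus strand: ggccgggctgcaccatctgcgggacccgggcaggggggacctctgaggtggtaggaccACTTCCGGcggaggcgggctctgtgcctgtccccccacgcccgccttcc
Mrpl17, chr7:105811088-105811237, minus strand: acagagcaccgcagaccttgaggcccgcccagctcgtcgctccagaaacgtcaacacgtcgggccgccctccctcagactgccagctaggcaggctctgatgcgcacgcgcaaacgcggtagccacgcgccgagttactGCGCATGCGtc
Mrps6, chr16:92058186-92058335, plus strand: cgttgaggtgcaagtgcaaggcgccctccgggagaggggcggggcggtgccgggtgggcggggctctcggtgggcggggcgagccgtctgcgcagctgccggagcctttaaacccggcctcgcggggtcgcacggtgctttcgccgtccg
Mrpl23, chr7:142532882-142533031, plus strand: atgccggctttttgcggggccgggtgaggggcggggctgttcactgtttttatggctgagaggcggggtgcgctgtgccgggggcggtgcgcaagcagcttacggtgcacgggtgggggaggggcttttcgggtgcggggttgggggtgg

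Across the 4 populations, most of the 76 genes were brightest in double-negative cells. Double-negative cells had the highest mean for 51 genes, double-positive cells for 23, red-only cells for 2 and green-only cells for 0, where all genes tested gave 35.5%, 28.2%, 20.9% and 15.5%. The lowest mean was in red-only cells for 31 genes (40.8%) and in green-only cells for 29 (38.2%). It was in double-negative cells for 9 (11.8%) and in double-positive cells for 7 (9.21%). All genes tested gave 23.8%, 16.8%, 31.2% and 28.3% in the same order. An F-test among the 4 populations passed for 26 genes (34.2%), beside 32.3% of all genes tested, so the number of genes that differed was near the background, and what could be described further was their direction. Without experiments A, B and C in turn the F-test passed for 14, 5 and 8 genes, and for 14 when the A array of double-negative cells was left out. Such fits have fewer arrays, and the shares of all genes that passed in them are not given, here or below. A lower count in them therefore cannot be read as particular to these genes.

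**Figure D1:**
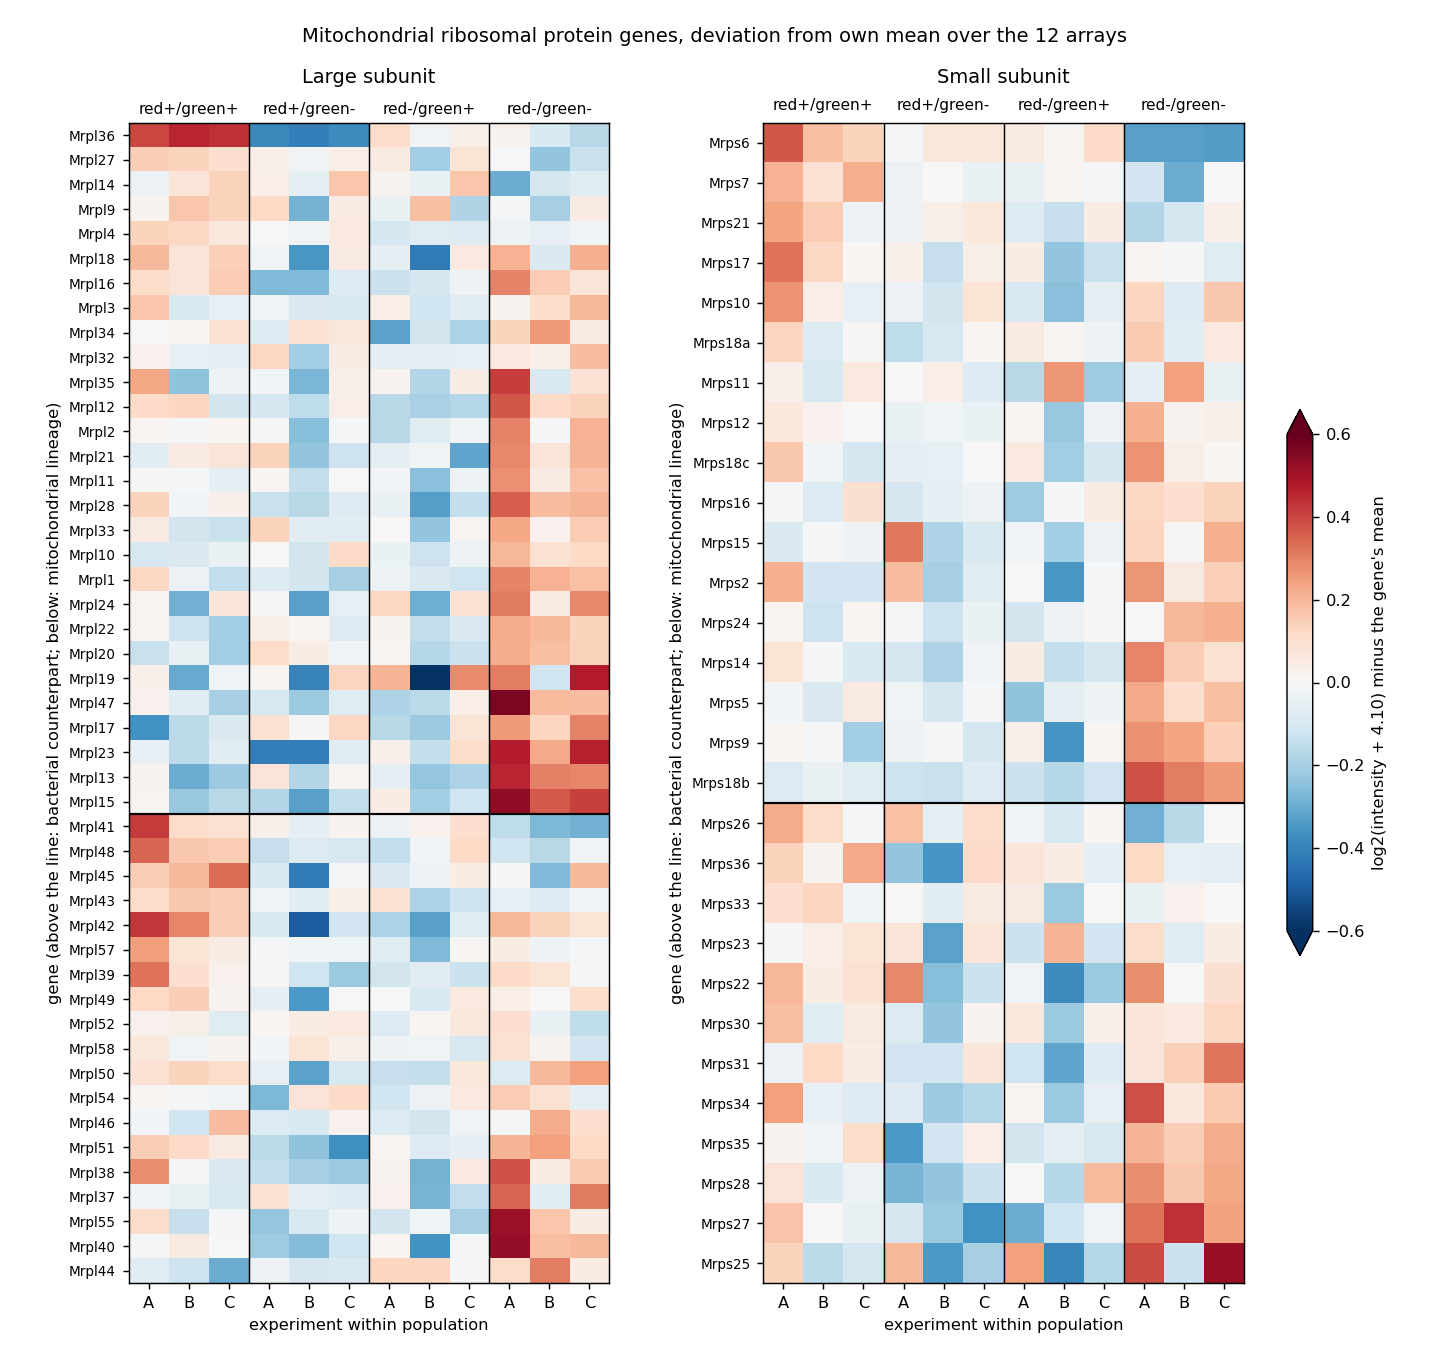
Deviation of log2(intensity + 4.10) from each gene's mean over the 12 arrays (colour), for large subunit genes on the left and small subunit genes on the right, 1 row per gene, with bacterial counterparts above the line, ordered within each block by the difference between double-positive and double-negative cells, and 1 column per array. Positive deviations (red) gather in the double-negative columns toward the bottom of each block, and the rows of Mrpl36 and Mrps6 stand apart.

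In double-positive against double-negative cells, 12 genes fell and 6 rose, and 58 did not pass. The genes that fell make up 15.8% of the 76, beside 17.6% of all genes tested, and those that rose 7.89%, beside 13.9%. With the replicate block, which takes account of arrays of the same experiment deviating together, 19 fell (25%, beside 19.7% of all genes in the same fit) and 9 rose (11.8%, beside 15.8%). The median difference was -0.12, where that of all genes was -0.01. Falling genes were mostly large subunit proteins with a bacterial counterpart, of which 9 of 28 fell and 2 rose. In the other groups 1 of 19, 1 of 17 and 1 of 12 fell.

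The largest decrease was in Mrpl15, the counterpart of a bacterial protein inside the large subunit. Its intensities were 149.8, 125.8 and 131.6 in double-positive, 130.7, 117.4 and 133.2 in red-only, 152.7, 128.2 and 135.8 in green-only and 215.8, 192.1 and 197.8 in double-negative arrays. Every double-negative array was above all 9 others. Genes were named for a rise or fall by size only where the arrays of the compared populations did not overlap, so this separation adds no support. The difference of double-positive from double-negative cells was -0.56 ± 0.09 (SE, adjusted p = 4.34e-04, limma). Of the 8 probe sets of Mrpl15, 5 others were bright enough to be tested, and they gave -0.61, -0.45, -0.45, -0.31 and 0.09, all but the last past the threshold.

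Mrpl13, another protein with a bacterial counterpart, had 206.4, 164.9 and 174.3 units in double-positive and 281.2, 252.5 and 250.7 in double-negative arrays, and fell by 0.52 ± 0.10 (SE, adjusted p = 0.00140, limma). Mrpl23, a protein at the rim of the tunnel through which the new chain leaves, had 177.2, 164.0 and 175.1 units in double-positive and 255.6, 215.2 and 254.5 in double-negative arrays, and fell by 0.48 ± 0.11 (adjusted p = 0.00450). For both genes the arrays of the 2 populations did not overlap, as the rule for naming genes required. Mrpl17 and Mrpl47, which also lie near the tunnel exit, fell by 0.43 ± 0.10 (adjusted p = 0.00424) and 0.40 ± 0.11 (adjusted p = 0.0140). Their only other bright enough probe sets, at 6.08 and 5.75 units in double-positive cells, near the array medians, gave 0.10 and 0.03, both short of the threshold. Mrpl17 did not pass without experiment A (-0.33, adjusted p = 0.0606), and Mrpl47 did not pass without experiment B (-0.46, adjusted p = 0.0612), without experiment C (-0.40, adjusted p = 0.0726), without the double-negative array of A (-0.27, adjusted p = 0.0616) or without the double-positive array of C (-0.34, adjusted p = 0.0622).

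The 6 genes that rose were Mrps6, Mrpl36, Mrpl41, Mrpl48, Mrps7 and Mrpl27. Mrps6, a protein of the platform of the small subunit, had 122.9, 107.2 and 103.8 units in double-positive, 93.5, 98.7 and 99.0 in red-only, 97.8, 94.8 and 102.1 in green-only and 74.2, 74.3 and 73.7 in double-negative arrays. All 9 reporter-positive arrays were above the 3 double-negative ones, and the double-positive arrays were the highest. The difference of double-positive from double-negative cells was 0.56 ± 0.07 (SE, adjusted p = 8.69e-05, limma), and the second probe set gave 0.58. In the annotation the Mrps6 gene overlaps Slc5a3, an inositol transporter, so a signal of that gene cannot be told apart. Mrpl27, Mrpl48 and Mrps7, described next, likewise overlap Eme1, Rab6a, and Gga3 and Mif4gd. Of the genes named below for a decrease, Mrps18b overlaps the long non-coding RNA gene Gm16279, Mrps27 overlaps 6430562O15Rik, Mrps28 overlaps Gm52600 and Gm52601, and Mrpl44 overlaps Wdfy1.

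Mrpl36 encodes a small zinc-binding protein of the large subunit that joins late in assembly. Its intensities were 54.7, 57.0 and 56.3 in double-positive, 30.0, 29.4 and 30.2 in red-only, 44.0, 39.8 and 41.4 in green-only and 41.2, 37.8 and 35.6 in double-negative arrays. The double-positive arrays lay above and the red-only arrays below all the others, while green-only and double-negative arrays overlapped. Against double-negative cells it rose by 0.51 ± 0.07 in double-positive cells (SE, adjusted p = 1.23e-04, limma) and fell by 0.31 ± 0.07 in red-only cells (adjusted p = 0.00581). It was the single gene of the 76 called in opposite directions in those comparisons, and it has no second probe set.

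Mrpl41, a large subunit protein of the mitochondrial lineage, had 117.8, 94.4 and 93.1 units in double-positive and 77.8, 71.6 and 70.5 in double-negative arrays, a rise of 0.45 ± 0.09 (SE, adjusted p = 0.00211, limma), and a second probe set gave 0.42 ± 0.08. Mrpl48, of the central protuberance of the large subunit, rose by 0.32 ± 0.09 (adjusted p = 0.0106). Mrps7, a head protein of the small subunit that helps that domain to assemble, rose by 0.31 ± 0.08 (adjusted p = 0.00987). Mrpl27, whose bacterial counterpart reaches to the peptidyl transferase centre, rose by 0.25 ± 0.09, just past the threshold (adjusted p = 0.0474). Mrpl27 did not pass in 13 of 24 alternatives, with values from 0.19 to 0.31, leaving out any of the double-positive or red-only arrays, or the double-negative array of B or C, among them. Mrpl48 did not pass without the double-positive array of A (0.26, adjusted p = 0.0517), without experiment A (0.25, adjusted p = 0.0825) or without experiment B (0.32, adjusted p = 0.0989), and Mrps7 did not pass without experiment A (adjusted p = 0.0712) or B (adjusted p = 0.0661).

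**Figure D2:**
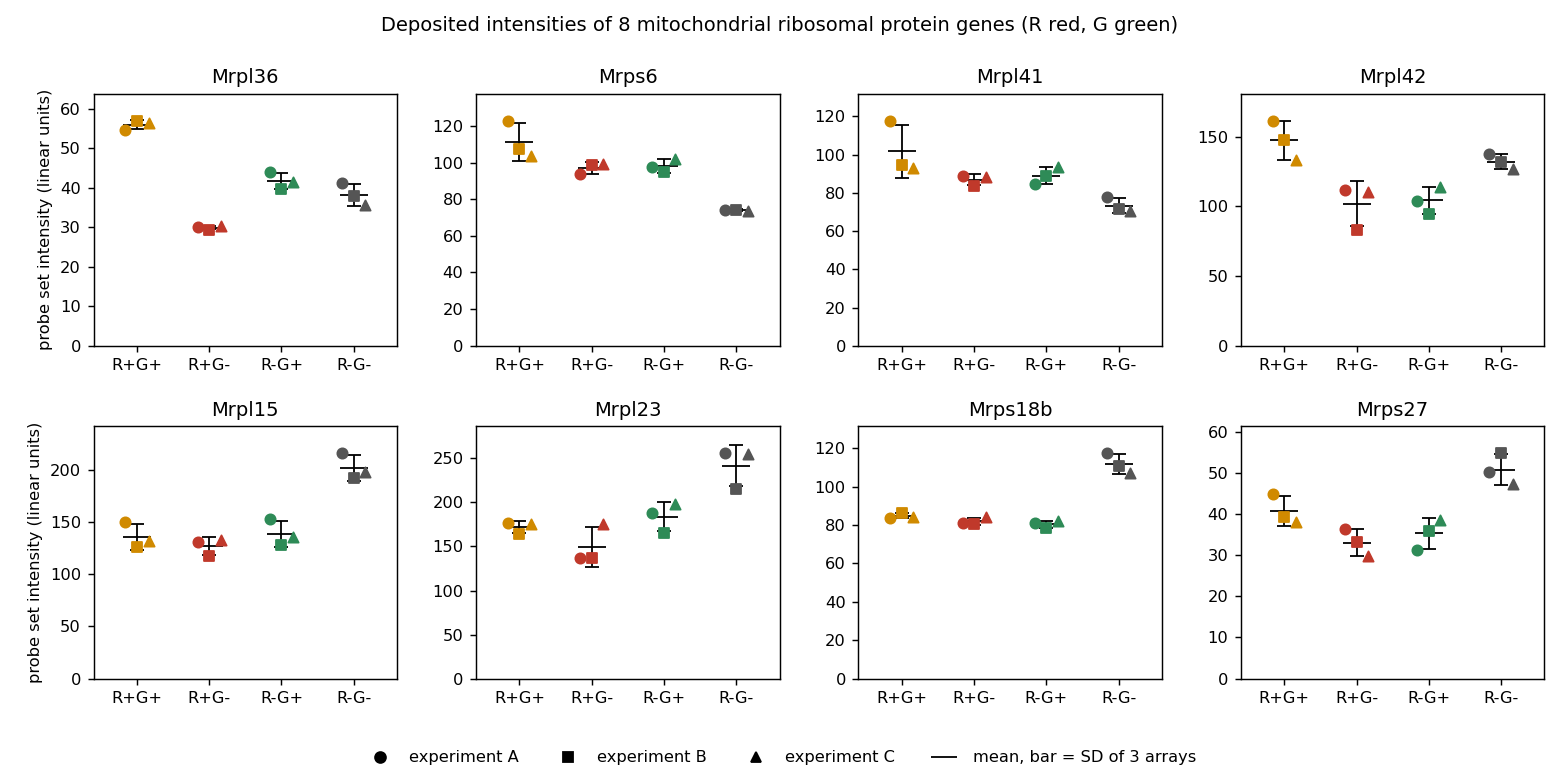
Deposited probe set intensity (linear units, axes from 0) of 8 genes on the 12 arrays, by population (R red, G green) with 1 marker shape per experiment, and mean and SD of 3 arrays. Mrpl36 is at 54.7 to 57.0 in R+G+ and 29.4 to 30.2 in R+G- arrays, and the R-G- arrays are the highest for Mrpl15, Mrpl23, Mrps18b and Mrps27 and the lowest for Mrps6 and Mrpl41.

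In all, 28 genes passed in double-positive against double-negative cells with the replicate block, in place of 18. Without experiment B the unblocked count was 11. The 12 lower genes became 5 without experiment C and 6 without the double-positive array of C, and the 6 higher genes became 3 without experiment A and 3 without B. Taken experiment by experiment, 37 of the 76 genes (48.7%) were lower in double-positive cells in each of the 3 experiments, where 32.1% of all genes tested were. A further 16 were higher in each. The share of all genes higher in each was not computed, here or in the other comparisons with double-negative cells.

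In red-only against double-negative cells, 20 genes fell and 1 rose. Those that fell were 26.3% of the 76, beside 12.7% of all genes tested, and the 1 that rose, Mrps6, was 1.32%, beside 10.9%. The median difference was -0.18, against -0.02 for all genes. The decreases were spread over the groups: 9 of 28 large subunit genes with a bacterial counterpart fell, 5 of 19 of the mitochondrial lineage, and 2 of 17 and 4 of 12 in the small subunit groups. The count of genes past the threshold, 21, was 12, 9 and 11 without experiments A, B and C, and 13 genes were lower without the red-only array of B. In each of the 3 experiments 50 of the 76 genes (65.8%) were lower in red-only cells, where 30.1% of all genes tested were, and 8 were higher in each.

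The largest decrease was in Mrpl23, at 136.4, 136.5 and 175.2 units in red-only arrays, all below its double-negative arrays (-0.69 ± 0.11, SE, adjusted p = 5.81e-04, limma). Mrpl15 fell by 0.65 ± 0.09 (adjusted p = 2.38e-04). Mrps27, a small subunit protein of the pentatricopeptide repeat family, which binds RNA, had 36.4, 33.1 and 29.7 units in red-only and 50.3, 54.7 and 47.2 in double-negative arrays and fell by 0.56 ± 0.10 (adjusted p = 0.00110). Mrpl40, of the central protuberance, had 72.0, 69.6 and 77.2 units against 123.1, 95.8 and 96.9, and fell by 0.50 ± 0.11 (adjusted p = 0.00584). Mrpl47 fell by 0.45 ± 0.11 (adjusted p = 0.00969). Mrps6 rose by 0.37 ± 0.07 (adjusted p = 0.00287). Mrpl40 did not pass without experiment A (-0.38, adjusted p = 0.0512), Mrpl47 without experiment B (-0.46, adjusted p = 0.0831) or on its second probe set (-0.05, adjusted p = 0.745), and Mrps6 without experiment B (0.36, adjusted p = 0.0590) or C (0.35, adjusted p = 0.0593).

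In green-only against double-negative cells, 22 genes fell and 1 rose, again Mrps6 (0.39 ± 0.07, SE, adjusted p = 0.00247, limma). Those that fell were 28.9% of the 76, beside 11.4% of all genes tested, and the 1 that rose was 1.32%, beside 9.33%. The median difference was -0.20, against -0.01 for all genes. Large subunit genes with a bacterial counterpart were again the most frequent, with 13 of 28 lower, and 3 fell in each of the other groups (of 19, 17 and 12). With the replicate block 35 genes passed in place of 23, of which 33 were lower (43.4%, beside 13.7% of all genes in that fit) and 2 higher (2.63%, beside 11.5%). The count was 11, 4 and 5 without experiments A, B and C, 9 without the double-negative array of A, 10 without the green-only array of B, 14 on the second probe sets and 12 with the other 6 arrays left out. In each of the 3 experiments 52 of the 76 genes (68.4%) were lower in green-only cells, where 26.8% of all genes tested were, and 6 were higher in each.

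Mrpl15 fell by 0.53 ± 0.09 (SE, adjusted p = 0.00127, limma) and Mrpl13, at 196.2, 172.7 and 178.4 units in green-only arrays, by 0.51 ± 0.10 (adjusted p = 0.00270). Mrps27, at 31.3, 35.9 and 38.6 units, fell by 0.48 ± 0.10 (adjusted p = 0.00356). Mrps18b, a small subunit protein related to bacterial S18, had 83.7, 86.4 and 84.3 units in double-positive, 81.2, 80.7 and 84.0 in red-only, 80.9, 78.4 and 81.8 in green-only and 117.2, 110.9 and 107.0 in double-negative arrays. The 9 reporter-positive arrays of Mrps18b lay within 78.4 to 86.4 and all below the double-negative ones, a difference of -0.45 ± 0.06 in green-only cells (adjusted p = 2.76e-04), -0.43 ± 0.06 in red-only cells (adjusted p = 3.81e-04) and -0.38 ± 0.06 in double-positive cells (adjusted p = 5.40e-04). Mrpl28 had 142.0, 115.8 and 132.0 units in green-only and 189.5, 167.0 and 169.3 in double-negative arrays and fell by 0.42 ± 0.09 (adjusted p = 0.00365). Mrpl28 did not pass on its second probe set (-0.17, adjusted p = 0.250) or without experiment B (adjusted p = 0.0533) or C (adjusted p = 0.0599). Mrpl13 and Mrps6 did not pass without experiment C (adjusted p = 0.0606 and 0.0664), nor Mrps27 without experiment B (adjusted p = 0.0882).

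The 3 comparisons with double-negative cells share those 3 arrays, so their calls are set side by side here and no overlap is read from them. Mrpl1, Mrpl13, Mrpl15, Mrpl23, Mrpl47, Mrps18b and Mrps27 were lower in all 3. Mrpl12, of the stalk that recruits translation factors, was lower in red-only and green-only cells, as were Mrpl16, Mrpl28, Mrpl40, Mrpl51, Mrpl55 and Mrps35. Mrpl17, Mrpl20 and Mrpl22 were lower in double-positive and green-only cells. Mrpl10 and Mrpl44 were lower in double-positive cells alone of the 3 comparisons, Mrpl38, Mrpl42, Mrps14, Mrps28 and Mrps34 in red-only cells, and Mrpl11, Mrpl34, Mrps5, Mrps9 and Mrps31 in green-only cells; whether such a gene differed between the populations is another comparison, given below. These calls rest on 1 probe set per gene. Another probe set of Mrpl11 was lower in all 3 comparisons (adjusted p = 0.0101, 0.0131 and 0.0165, limma). Another of Mrps5 was lower in red-only and green-only cells (adjusted p = 0.0263 and 0.0249). The remaining tested probe sets of Mrpl11 and Mrps5 passed in none. The shares of all genes with each of these patterns of calls, or with no call, were not computed. No call against double-negative cells was made for 41 genes. Among the steadiest was Mrpl52, at 200.9 to 240.2 units on the 12 arrays, and Mrpl58, which encodes an enzyme that frees chains from stalled ribosomes, was at 94.8 to 110.2.

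**Figure D3:**
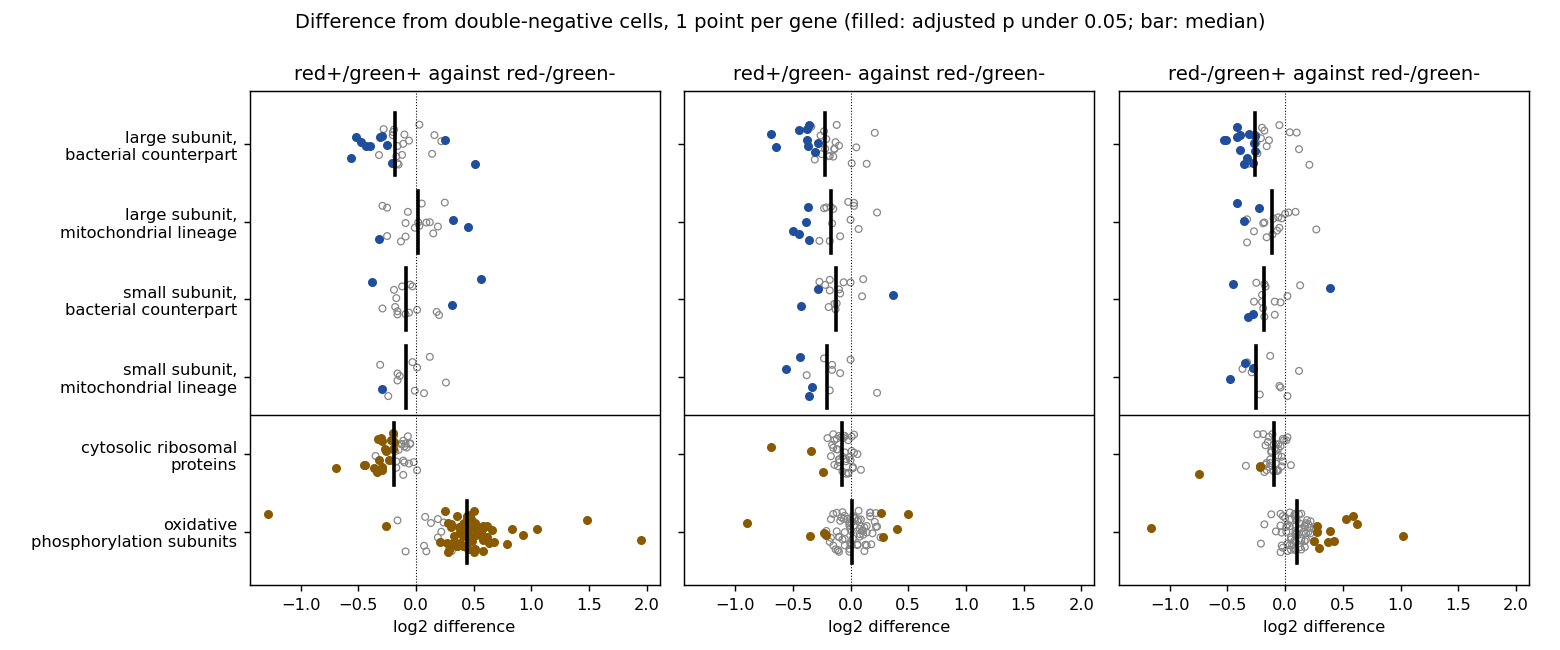
Log2 difference of each reporter-positive population from double-negative cells, 1 point per gene (vertical spread within a row is for display), filled where the adjusted p-value was under 0.05, bar at the median. The 4 rows of mitochondrial ribosomal protein genes have medians from -0.26 to 0.02, and oxidative phosphorylation subunits have a median of 0.44 in the first panel.

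Differences between the reporter-positive populations were fewer. In double-positive against red-only cells 5 genes rose (6.58% of the 76, beside 5.94% of all genes tested) and 0 fell (beside 6.15%); at an unadjusted p-value under 0.05 in limma, 14 were higher (18.4%, beside 11.3% of all genes) and 2 lower (2.63%, beside 12.8%). The median was 0.09, against 0.00 for all genes. The 5 past the adjusted threshold were Mrpl36, Mrpl42, Mrpl51, Mrpl48 and Mrpl16, all of the large subunit. Mrpl36 differed most, by 0.82 ± 0.07 (SE, adjusted p = 1.06e-05, limma). Mrpl42 had 161.5, 147.4 and 132.9 units in double-positive, 112.0, 83.2 and 110.2 in red-only, 104.1, 94.5 and 114.1 in green-only and 137.7, 131.8 and 126.9 in double-negative arrays, so that the first and last population overlapped and both lay above the middle ones. It rose by 0.52 ± 0.11 (adjusted p = 0.00933).

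Mrpl51, at 178.1, 174.2 and 166.4 units in double-positive and 143.6, 134.9 and 123.5 in red-only arrays, rose by 0.36 ± 0.07 (SE, adjusted p = 0.00658, limma), but its second probe set, at 7.87 and 7.55 units in these populations, near the array medians, gave 0.04. Mrpl48 rose by 0.33 ± 0.09 (adjusted p = 0.0234), with 0.17 on its second probe set (adjusted p = 0.212), and Mrpl16, which binds near the entry site of transfer RNA, by 0.32 ± 0.08 (adjusted p = 0.0204). With the replicate block 8 genes passed, 7 higher (9.21%, beside 7.88% of all genes in that fit) and 1 lower (1.32%, beside 8.87%). The count was 3, 1 and 2 without experiments A, B and C, 3 without the double-positive array of A, 3 without the red-only array of A, 3 without the red-only array of B, and 3 on the second probe sets. Mrpl42 did not pass without experiment B (0.39, adjusted p = 0.110) nor Mrpl51 without experiment B or C (adjusted p = 0.102 and 0.0939). Mrpl16 and Mrpl48 did not pass in 7 and 8 of 24 alternatives, with values from 0.28 to 0.38 and from 0.17 to 0.37.

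In double-positive against green-only cells 2 genes rose (2.63%, beside 2.85% of all genes tested) and 0 fell (beside 2.77%), with a median of 0.10 against 0.00. At an unadjusted p-value under 0.05, 17 were higher (22.4%, beside 8.98% of all genes) and 1 lower (1.32%, beside 9.46%). The 2 past the adjusted threshold were Mrpl42 (0.48 ± 0.11, SE, adjusted p = 0.0272, limma) and Mrpl36 (0.39 ± 0.07, adjusted p = 0.00720). The count was 1, 0 and 0 without experiments A, B and C. It was 1 without the double-positive array of A, the double-positive array of B or the green-only array of B, 1 on the second probe sets and 1 with the other 6 arrays left out. Mrpl36 did not pass without experiment B (0.35, adjusted p = 0.139) or C (0.38, adjusted p = 0.120). Mrpl42 did not pass in 8 of 23 alternatives, with values from 0.41 to 0.62. In each of the 3 experiments 32 of the 76 genes (42.1%) were higher in double-positive than in red-only cells, where 24.5% of all genes tested were, and 31 (40.8%) were higher than in green-only cells, where 21.1% were.

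Red-only and green-only cells differed in 1 gene. Mrpl36 was lower in red-only cells by -0.43 ± 0.07 (SE, adjusted p = 0.00541, limma), or 1.32% of the 76 genes beside 1.76% of all genes tested, and 0 genes were higher (beside 1.32%). At an unadjusted p-value under 0.05, 4 were lower (5.26%, beside 7.80% of all genes) and 1 higher (1.32%, beside 7.21%). The median difference was 0.00. Mrpl36 did not pass without experiment B (-0.45, adjusted p = 0.126) or C (-0.44, adjusted p = 0.119).

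A further contrast asked whether the difference that goes with the green reporter was the same with and without the red reporter: (double-positive minus red-only) minus (green-only minus double-negative). It is positive where the double-positive and double-negative populations are together above the other 2. It passed in the positive direction for 15 genes (19.7%, beside 4.80% of all genes tested) and in the negative direction for 0 (beside 5.67%), with a median of 0.28 against 0.03. At an unadjusted p-value under 0.05 in limma it was positive for 34 genes (44.7%, beside 12.2% of all genes) and negative for 0 (beside 11.1%). By group the 15 genes were 7 of 28, 4 of 19, 1 of 17 and 3 of 12. The estimates were above 0 for most of the 76 genes, and for Mrpl14, Mrps6, Mrps26, Mrpl52, Mrpl41 and Mrpl44 they were below 0.

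Mrpl42 had the largest estimate, 0.86 ± 0.16 (SE, adjusted p = 0.00483, limma). Mrps27 had 0.75 ± 0.14 (adjusted p = 0.00412), Mrpl36 0.71 ± 0.10 (adjusted p = 8.64e-04), Mrpl51 0.59 ± 0.11 (adjusted p = 0.00345) and Mrps18b 0.50 ± 0.09 (adjusted p = 0.00379). The same sign came from different patterns. In Mrpl42 both single-reporter populations were below both others. In Mrpl36 the double-positive arrays were high and the red-only arrays low, and in Mrps18b the double-negative arrays alone stood apart, by a like amount from each other population. The marker lists moved in this contrast too: all 7 pluripotency markers and 3 of 5 primitive blood markers were higher and all 7 cardiomyocyte and 4 of 5 endothelial markers lower, and their part was not tested. With the replicate block the contrast passed for 24 genes, all positive (31.6%, beside 7.22% of all genes in that fit, with 7.80% negative). Without experiment B it passed for 0 genes, without A for 9 and without C for 4. The count was 9 without the double-positive array of A, the double-negative array of A, the double-positive array of B or the green-only array of B, and 8 without the red-only array of B. Without experiment B the estimates of these 5 genes were 0.66, 0.74, 0.66, 0.55 and 0.47, with adjusted p-values of 0.0899, 0.105, 0.0605, 0.113 and 0.113; without C those of Mrpl51 and Mrps18b were 0.0567 and 0.0603, and the second probe set of Mrpl51, near the array medians, gave 0.02.

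**Figure D4:**
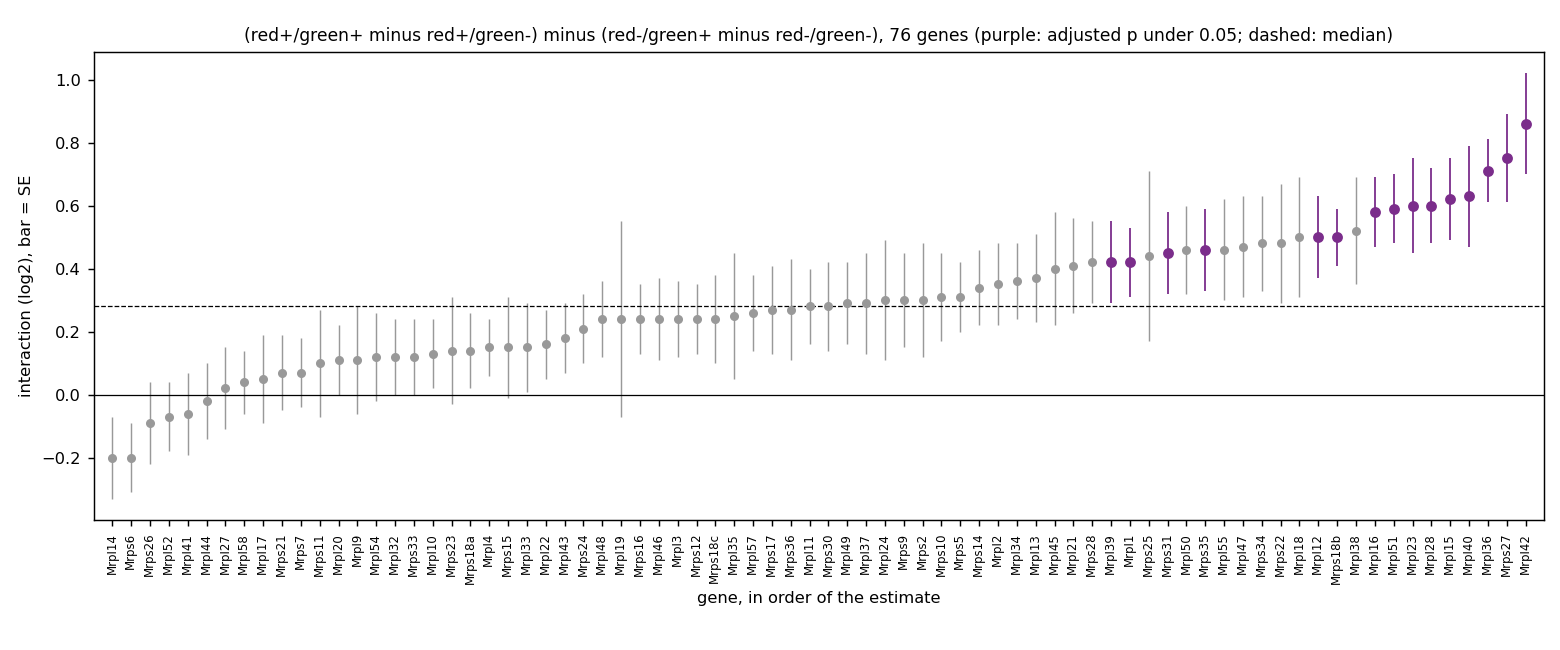
Interaction estimate on the log2 scale with its standard error for each of the 76 genes, in order of size, coloured where the adjusted p-value was under 0.05. The estimates centre on a median of 0.28 (dashed), 15 genes are coloured, and all of those are above 0.

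Other gene lists are set beside the 76 genes here, beginning with the respiratory chain that their ribosome serves. Of 77 nuclear genes for oxidative phosphorylation subunits, 63 rose (81.8%, beside 13.9% of all genes tested) and 2 fell (2.60%, beside 17.6%) in double-positive against double-negative cells. Their median was 0.44, where the 76 genes had -0.12. Cox6a2 and Cox7a1, the heart and muscle forms of subunits of cytochrome oxidase, rose by 1.95 ± 0.18 and 1.48 ± 0.12 (SE, adjusted p = 4.27e-06 and 1.02e-06, limma), and Ndufv3 of complex I by 1.05 ± 0.11 (adjusted p = 1.04e-05). In double-positive against red-only cells 54 of the 77 rose (70.1%, beside 5.94% of all genes) and 0 fell (beside 6.15%). Cytosolic ribosomal protein genes fell for 18 of 41 (43.9%, beside 17.6% of all genes) in double-positive against double-negative cells, with 0 rising (beside 13.9%) and a median of -0.19. In each of the other comparisons with double-negative cells 3 of 41 fell (7.32%), under the 12.7% and 11.4% of all genes. Cell cycle genes fell for 17 of 18, 14 of 18 and 14 of 18 in the 3 comparisons (94.4%, 77.8% and 77.8%, beside 17.6%, 12.7% and 11.4% of all genes). Their medians were -0.84, -0.49 and -0.64. The interaction contrast had a median of 0.29 for oxidative phosphorylation subunits, with 9 of 77 higher (11.7%). It was -0.02 for cytosolic ribosomal protein genes, with 1 of 41 higher (2.44%), and 0.23 for cell cycle genes, with 0 of 18 past the threshold. Of the genes in these lists 0 were lower. Among all genes tested 4.80% were higher and 5.67% lower. The cell cycle median was lowest in double-positive cells, where 12 of the 76 genes fell; 20 fell in red-only cells and 22 in green-only cells. The part of cell division in these results was not tested.

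On single arrays, the median deviation of the 76 genes from their own means was 0.20, 0.05 and 0.13 in double-negative, 0.08, -0.01 and 0.00 in double-positive, -0.03, -0.12 and -0.02 in red-only and -0.03, -0.14 and -0.03 in green-only arrays. In each experiment the double-negative array was the highest, the double-positive array came next and the single-reporter arrays were the lowest. The arrays of experiment B were lower than those of A in every population, so the double-negative array of B lay below the double-positive array of A. For all genes tested the array medians were from -0.02 to 0.01. The ratio of 3′ to 5′ actin probe sets, a measure of RNA integrity, was 1.32 to 1.55 over the 12 arrays. It was 1.55, 1.47 and 1.40 in double-positive and 1.36, 1.36 and 1.34 in double-negative arrays, so these populations did not overlap. Red-only arrays had 1.40, 1.48 and 1.32, and green-only arrays 1.35, 1.44 and 1.33. The same ratio for Gapdh was 0.883 to 1.01, and there double-positive and double-negative arrays overlapped. The part of RNA integrity in the results was not tested.

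**Figure D5:**
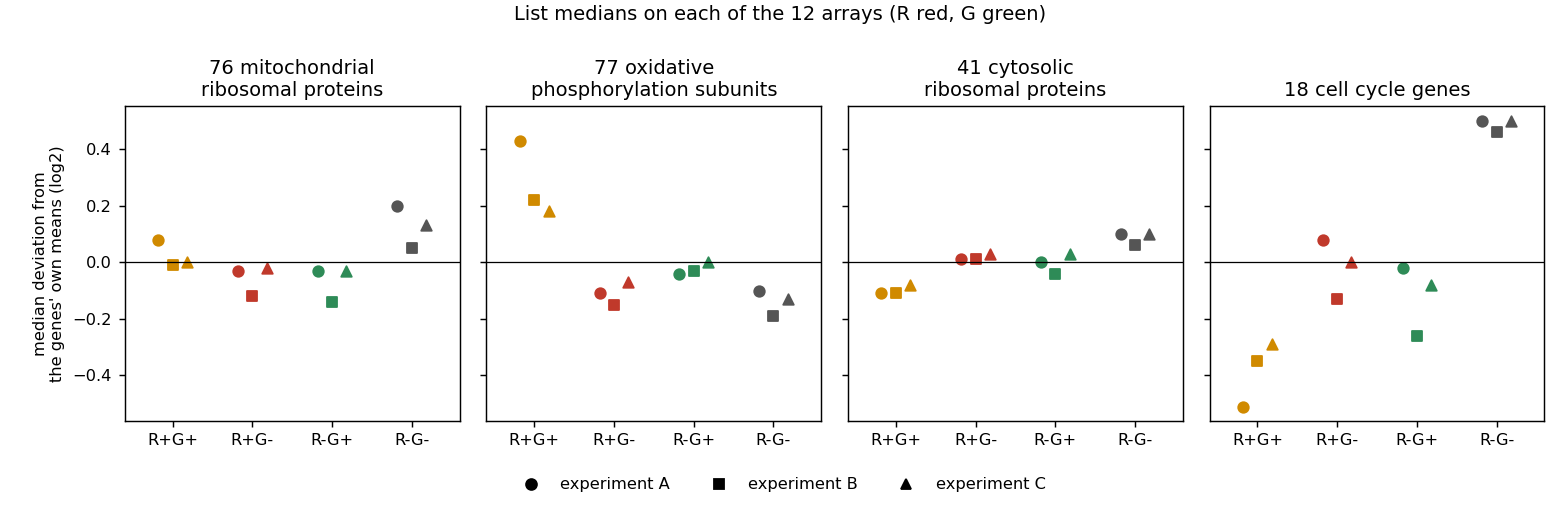
Median deviation from the genes' own means (log2) on each of the 12 arrays for 4 gene lists, by population (R red, G green) and experiment (marker shape). The 76 genes are highest in R-G- arrays (0.05 to 0.20), oxidative phosphorylation subunits in R+G+ arrays (0.18 to 0.43), and cell cycle genes in R-G- arrays (0.46 to 0.50).

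Genes that act with the mitochondrial ribosome are given beside the shares of all genes that fell, 17.6%, 12.7% and 11.4% in the 3 comparisons with double-negative cells. The shares of all genes that rose were 13.9%, 10.9% and 9.33%. Of 26 genes for its assembly and for the modification of its RNA, 7, 8 and 5 fell (26.9%, 30.8% and 19.2%) and 0 rose. Fastkd2, which binds the large ribosomal RNA, had 35.2 ± 2.2 units in double-negative and 20.0 ± 1.3, 21.6 ± 4.6 and 19.7 ± 2.0 in the other populations (SD, n = 3) and fell by 0.71 ± 0.12 in double-positive cells (SE, adjusted p = 4.97e-04, limma). Mterf3, which binds ribosomal RNA, fell there by 0.66 ± 0.17 (adjusted p = 0.00942), Malsu1, which keeps unfinished large subunits from joining, by 0.65 ± 0.19 (adjusted p = 0.0201) and C1qbp, an abundant matrix protein that binds RNA, by 0.40 ± 0.09 (adjusted p = 0.00435).

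Of 14 translation factors, 2, 4 and 2 fell (14.3%, 28.6% and 14.3%) and 0 rose, so that outside red-only cells the shares are near the background. Tsfm, the exchange factor of the elongation factor that brings transfer RNA, fell by 0.30 ± 0.09, 0.42 ± 0.09 and 0.41 ± 0.09 in the 3 comparisons (SE, adjusted p = 0.0194, 0.00411 and 0.00523, limma). Of 15 mitochondrial aminoacyl-tRNA synthetases, which load transfer RNAs, 3, 4 and 2 fell (20.0%, 26.7% and 13.3%) and 0 rose, again near the background outside red-only cells. Tars2 fell by 0.34 ± 0.11, 0.52 ± 0.11 and 0.50 ± 0.11 (adjusted p = 0.0313, 0.00413 and 0.00561) and Sars2 by 0.33 ± 0.09, 0.45 ± 0.09 and 0.43 ± 0.09 (adjusted p = 0.0153, 0.00328 and 0.00507). Of the 6 ribosomal or ribosome-bound proteins measured from a list with mostly other names (Dap3, Chchd1, Ptcd3, Gadd45gip1, Mrpl57 and Mrpl58, of which the last 2 are among the 76), 0 passed in any of these comparisons, with medians of -0.00, -0.10 and -0.11.

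Of 13 genes for mitochondrial DNA maintenance and transcription, 6, 7 and 6 fell in the 3 comparisons (46.2%, 53.8% and 46.2%). Ssbp1, the single-strand DNA binding protein, had 156.3 ± 11 units in double-negative and 96.5 ± 7.9 in double-positive cells (SD, n = 3) and fell by 0.67 ± 0.12 (SE, adjusted p = 8.78e-04, limma). Tfam, which packs the mitochondrial genome and starts its transcription, fell by 0.54 ± 0.11, 0.58 ± 0.11 and 0.57 ± 0.11 (adjusted p = 0.00197, 0.00190 and 0.00247), and Slirp, which stabilises mitochondrial messenger RNA, by 0.45 ± 0.08 in double-positive cells (adjusted p = 5.98e-04). The 1 gene of the list that rose was Polg, the DNA polymerase, in green-only cells (0.46 ± 0.15, adjusted p = 0.0416).

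Of 10 regulators of nuclear genes for mitochondria, 2 rose and 4 fell in the first comparison, 0 rose and 4 fell in the second and 1 rose and 3 fell in the third. Ppargc1a, a coactivator of mitochondrial genes that is abundant in heart, had a mean of 42.2 ± 17 units over double-positive arrays, with 13.4 ± 3.5 for green-only, 7.67 ± 0.38 for red-only and 4.30 ± 0.046 for double-negative arrays (SD, n = 3). The double-negative level lies under the array medians, so the size of the rise is uncertain. It rose by 2.40 ± 0.20 in double-positive cells (SE, adjusted p = 1.35e-06, limma), and Esrra, a nuclear receptor it works with, by 0.30 ± 0.11 (adjusted p = 0.0433). Its relative Pprc1 fell by 1.17 ± 0.09 (adjusted p = 4.48e-07), Gabpb1, the partner of the ETS factor Gabpa, by 0.91 ± 0.12 (adjusted p = 8.73e-05), and Nrf1 by 0.78 ± 0.11, 0.81 ± 0.11 and 0.56 ± 0.11 in the 3 comparisons (adjusted p = 1.64e-04, 2.19e-04 and 0.00339). Gabpa itself fell in red-only cells (by 0.30 ± 0.10, adjusted p = 0.0485), with -0.08 and -0.21 in the other comparisons. Yy1 did not pass, with -0.30, -0.10 and -0.28 (adjusted p = 0.0676, 0.625 and 0.108).

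A start of another gene on the opposite strand within 1000 bases was found for 25 of the 67 genes with a promoter window (37.3%), where 18.1% of all genes tested had one. Mrpl46 and Mrps11 start 42 bases apart and face away from each other. Neither passed against double-negative cells, with -0.09 and -0.05 in double-positive cells. Neighbours of the 25 did not always move with them. Mrpl47 and Ndufb5, a subunit of complex I, start 308 bases apart, and in double-positive cells Mrpl47 fell by 0.40 while Ndufb5 rose by 0.44 ± 0.11 (SE, adjusted p = 0.00764, limma). Mrpl27 and Eme1, of a DNA repair endonuclease, start 48 bases apart, and Mrpl27 rose by 0.25 while Eme1 fell by 0.80 ± 0.11 (adjusted p = 1.21e-04). Mrps18b and Ppp1r10, 756 bases apart, both fell in double-positive cells, by 0.38 and 0.41 ± 0.12 (adjusted p = 0.0164). Of 21 such neighbours that were tested, both genes were called in the same direction for 1, 3 and 2 in the 3 comparisons and in opposite directions for 2, 0 and 0. Taken singly, 6, 6 and 6 of the 21 members and 6, 7 and 6 of their neighbours were called. Mrpl46 and Mrps11 are counted once from each side. The share of such joint calls among all genes was not computed, so the counts cannot be set against a background. These examples were chosen after their values were seen, and the difference within a pair was not tested.

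Other probe sets of the same genes gave a check of the calls. Of the 18 genes called in double-positive against double-negative cells, 10 had another bright enough probe set. At least 1 of these had the same sign for 8 genes and passed in the same direction for 6, while 3 genes had 1 or more of opposite sign and 0 passed in the opposite direction. Of 21 genes called in red-only cells 9 had another, with the same sign for 8, passing for 4 and an opposite sign for 2. Of 23 called in green-only cells 13 had another, with the same sign for 11, passing for 5 and an opposite sign for 3, and again 0 passed in the opposite direction. The check was added after seeing the data.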

How the data were processed

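The deposited values are probe set intensities on a linear scale, made by the authors with MAS5, per the submitters' processing notes, with the version and scaling target not given in the sources used here. Of 45101 probe sets, 34945 have 1 gene in the platform annotation. The highest probe set of each gene was kept, the values were taken as log2(intensity + 4.10), the 25th percentile of all values, and dim genes were left out (mean below 3.22 on that scale, the 40th percentile over probe sets). limma 3.58.1 in R 4.3.3 fitted 1 mean per population to all 12 arrays, with 8 residual degrees of freedom, and two-sided p-values were adjusted by Benjamini-Hochberg over 13698 genes in each comparison. An exact permutation test of 3 arrays against 3 cannot give a p-value under 0.1, and the number of arrays limits the precision. The fit was also run on simulated data with independent noise of the same SD for every gene and no effect of experiment. The simulation leaves out the shared deviation of arrays of the same experiment, given below. No result here rests on it.

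Samples were grouped by their labels. Arrays of the same experiment, named by letter in the labels, deviated together (correlations of deviations from the group means 0.116 to 0.424 over 18 pairs), so the letter was taken to pair the arrays and a replicate block was fitted beside the unpaired fit, where 28 genes passed in double-positive against double-negative cells. Each comparison names up to 5 rises and 5 falls past the threshold, by size, among genes whose arrays did not overlap between the compared populations. Other genes were named after their values were seen. Members, role groups and gene lists were chosen with earlier results of these data known. Alternatives changed the pseudocount, normalization, filter, variance model, probe set, arrays and block; testing every probe set on its own was added after seeing the data. Sequences are from RefSeq.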

Additional observations from a re-analysis of the deposited data

Results flagged for a closer look

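The interaction test described above (limma, adjusted over 13698 genes) passed for 15 of the 76 genes, all in the positive direction. That is 19.7%, beside 4.80% of all genes tested, with 5.67% of all genes in the negative direction. In these genes the difference that goes with the green reporter differed with and without the red reporter. The 5 with the smallest adjusted p-values are given here. The interaction was 0.86 on the log2 scale for Mrpl42, 0.75 for Mrps27, 0.71 for Mrpl36, 0.59 for Mrpl51 and 0.50 for Mrps18b. Without experiment B the estimates were 0.66, 0.74, 0.66, 0.55 and 0.47, and none of the 5 passed the threshold. Mrpl51 and Mrps18b also did not pass without experiment C (adjusted p = 0.0567 and 0.0603, limma). The second probe set of Mrpl51, near the array medians, gave 0.02.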

How the results depend on the processing

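Leaving out experiment B gave the lowest count of genes past the threshold in each comparison, tied with leaving out C in double-positive and red-only against green-only cells. Over all fits that left out an array or an experiment, the counts ran from 11 to 21 in double-positive against double-negative cells, 9 to 22 in red-only and 4 to 23 in green-only against double-negative cells, 1 to 6 in double-positive against red-only, 0 to 2 in double-positive against green-only and 0 to 1 in red-only against green-only cells, 5 to 25 for the F-test and 0 to 15 for the interaction. With the replicate block the counts became 28, 35, 8 and 24 in double-positive against double-negative, green-only against double-negative, double-positive against red-only and the interaction, and the block changed no call of a gene named by the rule. On the second highest probe sets they were 14 in green-only against double-negative, 3 in double-positive against red-only and 1 in double-positive against green-only cells, and with the other 6 arrays left out 12 and 1 for the first and last of these. On those probe sets the difference of double-positive from double-negative cells turned from -0.43 to 0.10 for Mrpl17 and from -0.40 to 0.03 for Mrpl47, at signals near the array medians; the cause was not tested. A fit without an experiment has fewer arrays as well as other ones, and the shares of all genes that passed in such fits are not given. The other pseudocounts, the filters, quantile normalization and the other variance model left these counts within 1.5 times.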
